A study of Mus musculus with 16 samples.

Results

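The urea cycle genes were examined in RNA-seq libraries from the livers of aged mice with and without the hepatic glucagon receptor. The set of 8 was chosen by gene symbol and includes the enzymes Cps1, Otc, Ass1 and Asl, the enzyme Nags that makes the activator of the first step, and the mitochondrial carriers Slc25a15 and Slc25a13. All 8 symbols were found among the 41079 genes of the counts table, and all 8 were among the 16742 genes that passed the filter on low counts and were tested. The 16 libraries formed 4 groups of 4 mice, all on a C57BL/6J background and 20 to 22 months old. LKO mice carried Gcgr alleles with loxP sites around several exons together with Cre under the albumin promoter, which deletes the receptor in hepatocytes. CRE- mice carried the floxed alleles without Cre and served as controls of the same sex. Male CRE-, male LKO, female CRE- and female LKO livers were compared to ask which transcripts accompany loss of the receptor in each sex. The libraries held between 33268424 and 56488920 reads assigned to genes, and each mouse gave a single library.

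The urea cycle turns ammonia, which is toxic, into urea for excretion, and the complete cycle runs mainly in hepatocytes around the portal vein. Its opening steps lie in the mitochondrion, where Cps1 joins ammonia and bicarbonate into carbamoyl phosphate and Otc passes that group to ornithine to give citrulline. The later steps lie in the cytosol, where Ass1 adds aspartate and Asl releases fumarate and arginine. Nags makes N-acetylglutamate, without which Cps1 is inactive, Slc25a15 exchanges ornithine for citrulline across the inner mitochondrial membrane, and Slc25a13 (citrin) delivers aspartate to the cytosol. Glucagon acts on hepatocytes through cAMP and is a known inducer of amino acid breakdown and ureagenesis.

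The targeted gene was read first. Gcgr was present at 190.4, 193, 127 and 189.6 CPM (read counts scaled to library size with TMM factors) in male CRE- replicates 1 to 4 and at 117, 136, 130 and 160.3 CPM in male LKO. In females it was present at 162, 208, 201 and 180 CPM in CRE- and at 48.8, 132, 119 and 93.6 CPM in LKO. Every female LKO library lay below every female control, whereas the male groups overlapped through male CRE- replicate 3, the lowest control. The log2 fold change of Gcgr was -0.37 in males (edgeR adjusted p = 0.671) and -0.93 in females (edgeR adjusted p = 0.0443; below the control mean in 4 of 4 LKO livers). The female call was held in 3 of the 16 fits made with 1 library missing, those without male CRE- replicate 2 or 3 or female LKO replicate 2, and lost in the other 13, with an edgeR adjusted p of up to 0.136 without female CRE- replicate 2. It was also lost without a filter (edgeR adjusted p = 0.0545) and with the 8 female libraries alone (edgeR adjusted p = 0.132). The counts are summed over the whole gene, exons outside the deleted stretch included, so reads that remain in LKO libraries do not measure intact receptor transcript, and the level is a weak check of the genotype labels. The paper gives its own check of the knockout. It reports lower receptor mRNA in the liver and in no other tissue examined, in mice of this age and both sexes.

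Some libraries stood apart. On the first principal component of all genes tested, female LKO replicates 1 to 4 scored 114, 22.1, 42.5 and 75.4. The female controls lay between -21.0 and 14.9, so every female LKO liver was above them, replicates 1 and 4 farthest. Male CRE- replicate 3 scored 89.6 on the second component, the highest of the 16, and its 10 most abundant genes took 25.3% of its reads, also the highest share. Female LKO replicate 1 had the largest share of mitochondrially encoded transcripts, 0.605% of reads, and the lowest mean correlation with its own group (r = 0.923). Female LKO replicate 1 also had the lowest level of 6 of the 8 urea cycle genes among the 16 libraries and all 8 of them among its 4 lowest libraries. The 5 pancreatic acinar markers, with the most reads on Cela1, summed to 367 CPM in female CRE- replicate 2 against 7.65 to 11.8 CPM in the other female controls, and to 89.4 CPM in male CRE- replicate 2 against 2.55 to 10.4 CPM in the other male controls. Both of these control libraries had reads on all 5. Their part in the values of these controls was not tested. Female LKO replicate 2, in contrast to replicate 1, had no urea cycle gene among the 4 lowest.

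Together the 8 genes took a sizeable part of each library. They held 0.755%, 0.782%, 0.579% and 0.632% of all assigned reads in male CRE- replicates 1 to 4 and 0.526%, 0.391%, 0.549% and 0.342% in male LKO. They held 0.827%, 0.775%, 0.873% and 0.790% in female CRE- and 0.301%, 0.819%, 0.412% and 0.575% in female LKO. Each male LKO library held a smaller share than each male control, and in females 3 of the 4 LKO libraries did, with replicate 2 inside the control range. The female LKO group was the most uneven, with an SD of 0.225 percentage points around a mean of 0.527% (n = 4), against 0.0441 around 0.816% (n = 4) in the female controls.

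The levels of the members were compared with one another per kilobase of exon. In the 8 control livers the mean level was 1816 CPM per kb for Ass1, 427 for Cps1, 208 for Asl, 102 for Otc, 67.4 for Slc25a15, 41.8 for Slc25a13 and 35.5 for Nags. Ass1 thus ranked 41st and Nags 1587th among the 16742 genes tested. Ass1 stood above Cps1, Cps1 above Asl and Asl above Otc in each of the 16 libraries. The lower end of the order was less firm. Otc exceeded Slc25a15 in 13 of the 16 libraries, Slc25a15 exceeded Slc25a13 in 14, and Slc25a13 exceeded Nags in 13. Nags and Slc25a13 were not separated beyond the spread between livers.

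Tests were run with edgeR (quasi-likelihood) on all 16 libraries, p-values were adjusted by the Benjamini-Hochberg method over the 16742 genes tested, and a gene was called when its adjusted p was under 0.05. In males none of the 8 genes was called (0 of 8 by edgeR, DESeq2 and limma-voom), against 76 genes or 0.454% of all genes tested, 39 of them lower (0.233%). The genes called in males numbered 26 to 50 in the fits without any 1 of the 8 male libraries or without female CRE- replicate 2. In females 1 of 8 was called, Otc, and it was lower, against 710 genes or 4.24% of all genes tested, 360 of them lower (2.15%). DESeq2 called 2 of 8 in females, Otc and Slc25a15, and 1795 genes, and limma-voom called 5 of 8, Ass1 and Nags among them, and 1976 genes. In edgeR the female calls fell to 87 genes without female CRE- replicate 2, 110 without replicate 4, 122 without replicate 3 and 385 without replicate 1, to 237 without female LKO replicate 1 and 404 without replicate 4, and to 428 and 427 without male LKO replicates 2 and 4, and numbered 1310 without female LKO replicate 2. All 8 log2 fold changes were below 0 in each sex in edgeR on 16 libraries, but in males the values of Otc, Nags and Slc25a13 were 0.08, 0.07 and 0.13 without male CRE- replicate 2, Nags was also above 0 without male CRE- replicate 4 (0.01) or male LKO replicate 1 (0.04), and limma-voom gave 0.01 for Nags and 0.02 for Slc25a13. By comparison, 50.9% of the genes tested were below 0 in males, 46.9% in females and 21.9% in both. The median log2 fold change of the 8 genes was -0.53 in males and -0.78 in females, beside -0.01 and 0.04 for all genes tested. At an unadjusted p under 0.05 there were 3 lower members in males (Cps1, Ass1 and Slc25a15; 4.74% of all genes tested were lower at that level) and 7 in females (9.14% of all genes tested).

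Abundant transcripts as a body had estimates below 0 in females. They were taken as the 1948 genes tested with a mean of at least 75.0 CPM in the controls, the value of Nags, a floor on reads that takes no account of gene length. Of these, 78.2% had a log2 fold change below 0 in females, with a median of -0.27, 28.7% were lower at an unadjusted p under 0.05 and 8.06% were called lower. In males the same genes had a median of -0.02, with 52.0% below 0 and 0.359% called lower. The medians of the 8 urea cycle genes lay below these medians in both sexes, and no test of that difference was made.

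**Figure D1:**
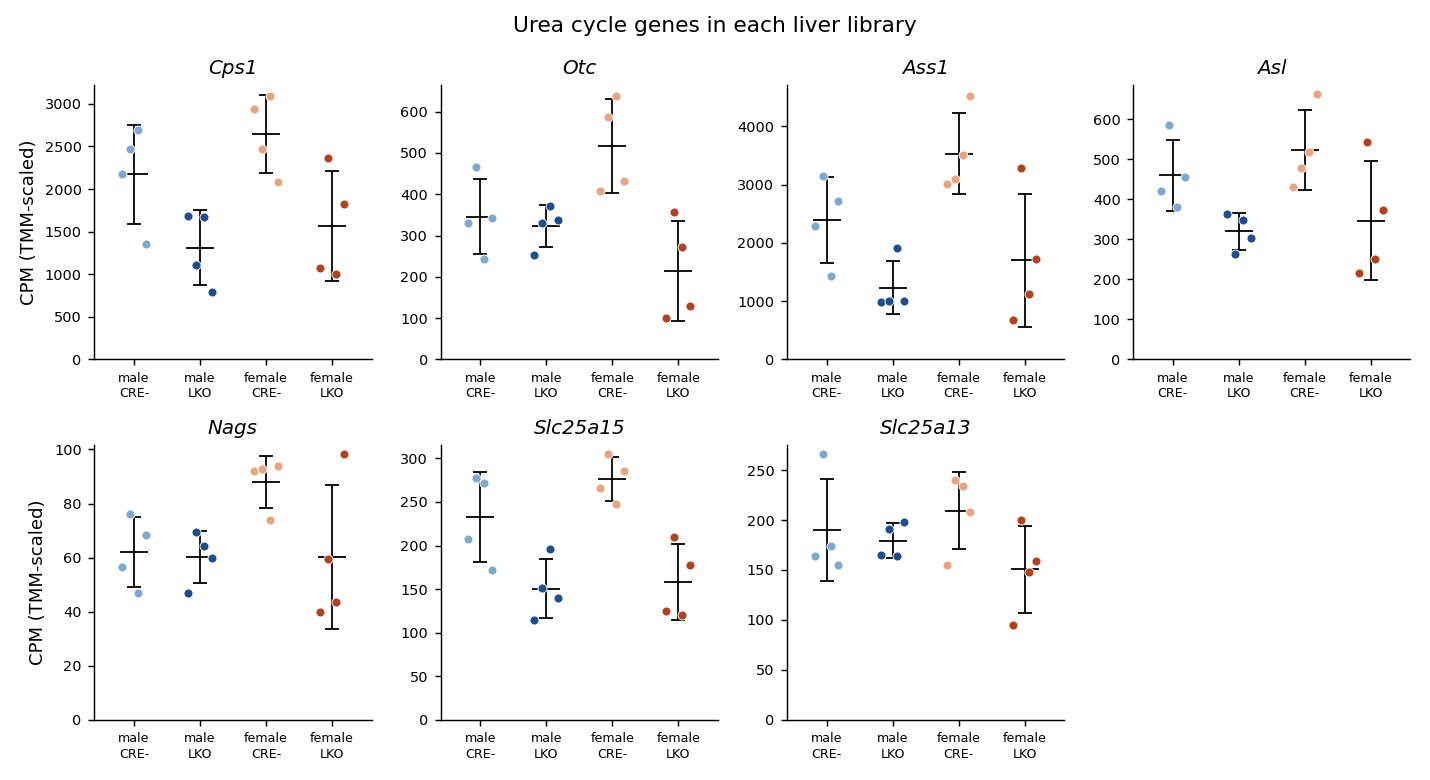
Level of 7 urea cycle genes in every liver. The vertical axis of each panel is CPM after TMM scaling and starts at 0; each point is 1 mouse, the horizontal bar is the group mean and the whiskers are 1 SD (n = 4). Female LKO points spread widely, from 676 to 3287 CPM for Ass1, whereas the 4 female controls of Slc25a15 sit between 248 and 305 CPM.

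Cps1 commits ammonia to the cycle. Its level was 2178, 2472, 2688 and 1355 CPM in male CRE- replicates 1 to 4 and 1685, 1106, 1675 and 787 CPM in male LKO. In females it was 2945, 2474, 3090 and 2079 CPM in CRE- and 1075, 2366, 998 and 1821 CPM in LKO. The male groups overlapped through the low control replicate 4, and the female groups through LKO replicate 2, which lay within the control range. Group means were 2173 ± 584 CPM and 1313 ± 443 CPM in males and 2647 ± 461 CPM and 1565 ± 650 CPM in females (SD, n = 4). The log2 fold change was -0.73 ± 0.32 (SE) in males (edgeR adjusted p = 0.467) and -0.76 ± 0.32 in females (edgeR adjusted p = 0.171), so nearly the same size in both sexes and past the threshold in neither.

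Otc, the X-linked enzyme that forms citrulline, showed the most unequal estimates between the sexes. In male CRE- livers it was at 330, 465, 244 and 342 CPM, and in male LKO livers at 252, 331, 373 and 338 CPM. In female CRE- livers it was at 407, 588, 638 and 433 CPM, and in female LKO livers at 99.5, 357, 273 and 129 CPM. The male values lay over one another, while every female LKO value lay below every female control, with replicates 1 and 4 far below the others. In females Otc fell by 1.27 ± 0.34 on the log2 scale (SE; 95% interval -1.98 to -0.56; edgeR adjusted p = 0.0448; below the control mean in 4 of 4 LKO livers), that is to 0.415 of the control level. In males the log2 fold change was -0.09 (95% interval -0.79 to 0.61).

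The call of Otc in females was close to the threshold. It was held under DESeq2, limma-voom, RLE scaling, no filter and a block by replicate number (lowest adjusted p = 0.00590). It was also held in 4 of the 16 edgeR fits made with 1 library missing, those without male CRE- replicate 2 or 3, male LKO replicate 1 or female LKO replicate 2, and lost in the other 12, where the edgeR adjusted p lay between 0.0523 without female LKO replicate 3 and 0.133 without female CRE- replicate 2. Leaving out female LKO replicate 1 gave a log2 fold change of -1.01 (edgeR adjusted p = 0.108), leaving out female LKO replicate 4 gave -1.08 (edgeR adjusted p = 0.0935), leaving out female CRE- replicate 3 gave -1.15 (edgeR adjusted p = 0.125), and fitting the 8 female libraries alone gave -1.24 (edgeR adjusted p = 0.133).

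Nags, which makes the activator of Cps1, stood with Slc25a13 at the low end of the set per kilobase. It was measured at 56.4, 76.1, 46.9 and 68.4 CPM in male CRE- and at 47.0, 69.5, 64.2 and 59.8 CPM in male LKO. It was measured at 92.0, 92.8, 73.7 and 94.0 CPM in female CRE- and at 39.8, 59.6, 43.4 and 98.3 CPM in female LKO. The male groups coincided, and in females 3 LKO livers lay below every control while LKO replicate 4 lay above them all. Nags had a log2 fold change of -0.04 in males (95% interval -0.57 to 0.48) and -0.55 in females (95% interval -1.07 to -0.02; edgeR adjusted p = 0.212). Without female LKO replicate 4 the female value was -0.89 and Nags was called (edgeR adjusted p = 0.0405).

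Among the carriers, Slc25a15, which brings ornithine into the mitochondrion and takes citrulline out, gave the firmest difference of the set. Its level was 208, 278, 272 and 172 CPM in male CRE- and 115, 151, 196 and 140 CPM in male LKO. It was 266, 305, 248 and 286 CPM in female CRE- and 125, 210, 120 and 177 CPM in female LKO. All 4 female LKO livers were below all 4 female controls, and in males 3 of 4 LKO livers were below every control, with LKO replicate 3 above control replicate 4. The log2 fold change was -0.63 ± 0.22 (SE) in males (edgeR adjusted p = 0.333) and -0.80 ± 0.22 in females (edgeR adjusted p = 0.0512). The female value passed the threshold without male CRE- replicate 3 (edgeR adjusted p = 0.0486), male CRE- replicate 4 (0.0497), male LKO replicate 1 (0.0476) or female LKO replicate 2 (0.0234). It also passed under DESeq2 (adjusted p = 0.0128), limma-voom (adjusted p = 0.0107) and a block by replicate number (edgeR adjusted p = 0.0299), and did not in the other 12 fits with 1 library missing (highest edgeR adjusted p = 0.155), with RLE scaling, without a filter or with the 8 female libraries alone. Averaged over the sexes, Slc25a15 fell by 0.72 ± 0.16 on the log2 scale (SE; 95% interval -1.05 to -0.38; edgeR adjusted p = 0.0206), to 0.609 of the control level, and lay under its sex's control mean in 4 of 4 LKO livers of each sex.

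Slc25a13 is the aspartate-glutamate carrier of liver. It was at 164, 266, 174 and 155 CPM in male CRE- and at 165, 191, 164 and 198 CPM in male LKO. It was at 155, 240, 234 and 208 CPM in female CRE- and at 95.4, 200.5, 148 and 159 CPM in female LKO. The male groups overlapped fully, and in females LKO replicates 1 and 3 lay below all controls while replicates 2 and 4 did not. The log2 fold changes were -0.08 in males (95% interval -0.57 to 0.40) and -0.47 in females (95% interval -0.96 to 0.01; edgeR adjusted p = 0.245). With 1 library missing, the female value ran from -0.64 to -0.29 over the 16 fits and was called in none.

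Of the cytosolic enzymes, Ass1 had the largest estimate in the mean of both sexes. It was at 2294, 3142, 1426 and 2715 CPM in male CRE- and at 991, 1010, 1917 and 1004 CPM in male LKO. It was at 3011, 3089, 3503 and 4514 CPM in female CRE- and at 676, 3287, 1116 and 1717 CPM in female LKO. In each sex 3 of 4 LKO livers lay below every control, the exceptions being male LKO replicate 3, which exceeded the low control replicate 3, and female LKO replicate 2. Group means were 2394 ± 733 CPM and 1230 ± 458 CPM in males and 3529 ± 691 CPM and 1699 ± 1142 CPM in females (SD, n = 4). The log2 fold change was -0.96 ± 0.40 (SE) in males (edgeR adjusted p = 0.434) and -1.05 ± 0.40 in females (edgeR adjusted p = 0.129), close to 0.5 of the control level in each sex but with intervals reaching from -1.80 to -0.12 and from -1.89 to -0.22. Over the 16 fits with 1 library missing, the female value of Ass1 ran from -1.59 to -0.78. The low end was the fit without female LKO replicate 2, where Ass1 was called (edgeR adjusted p = 0.0198).

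Asl, the lyase, was at 420, 585, 380 and 454 CPM in male CRE- and at 364, 264, 348 and 302 CPM in male LKO. It was at 429, 479, 518 and 662 CPM in female CRE- and at 216, 543, 249 and 374 CPM in female LKO. In males every LKO liver lay below every control, which makes Asl the 1 member of 8 with separate male groups, against 2.92% of the genes tested. In females LKO replicate 2 lay inside the control range, and 3 members of 8, Otc and Slc25a15 among them, had every LKO liver below every control, against 6.42% of the genes tested. Asl had a log2 fold change of -0.53 ± 0.26 (SE) in males (edgeR adjusted p = 0.547) and -0.60 ± 0.26 in females (edgeR adjusted p = 0.191). Over the 16 fits with 1 library missing, the female value of Asl ran from -0.90 to -0.41. The low end was the fit without female LKO replicate 2, where Asl was called (edgeR adjusted p = 0.0330).

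**Figure D2:**
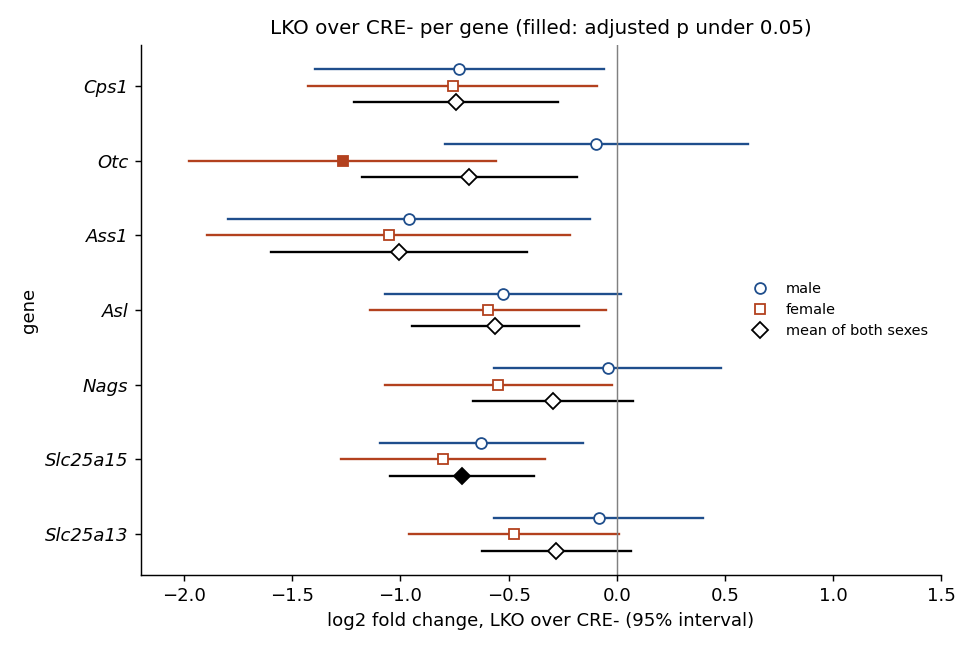
Log2 fold change of LKO over CRE- for 7 urea cycle genes in males, in females and as the mean of both sexes. The horizontal axis is the log2 fold change from edgeR, the lines are 95% intervals, and filled symbols have an adjusted p under 0.05. The filled symbols are Otc in females at -1.27 and Slc25a15 in the mean of both sexes at -0.72.

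Averaging the male and the female difference, which uses all 16 livers, 1 of 8 members was called and was lower, Slc25a15, against 478 genes or 2.86% of all genes tested, 277 of them lower (1.65%). In that mean DESeq2 called 4 of 8 and 1013 genes, and limma-voom 5 of 8 and 857 genes. The genes called by edgeR numbered 316 without male CRE- replicate 2 and 299 without female CRE- replicate 2. Next to the threshold came Ass1 with a log2 fold change of -1.01 (edgeR adjusted p = 0.0655) and Cps1 with -0.74 (edgeR adjusted p = 0.0902). At an unadjusted p under 0.05, 6 members were lower, where 7.41% of all genes tested were lower. The median log2 fold change of the 8 genes was -0.68 beside 0.02 for all genes tested. Of the 1948 abundant genes, 5.49% were called lower, 20.7% were lower at an unadjusted p under 0.05, and the median was -0.14. Slc25a15 stayed under the threshold in each fit that left out a single library (highest edgeR adjusted p = 0.0494), and reached 0.0505 when male CRE- replicate 3 and female LKO replicate 1 were both left out, a choice made after seeing the data. That fit called 491 genes and 2 members, Ass1 among them (-0.96; edgeR adjusted p = 0.0427). Without female LKO replicate 2 alone, 5 members were called in the mean of both sexes (Cps1, Otc, Ass1, Asl and Slc25a15) and 4 in females (Otc, Ass1, Asl and Slc25a15), where that fit called 598 genes in the mean and 1310 in females, and without male CRE- replicate 3 or male LKO replicate 3 Ass1 joined Slc25a15 in the mean.

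The difference between the sexes was tested directly. By edgeR's quasi-likelihood test no member was called (0 of 8), as was true of all genes (0 genes, 0%), although 2672 genes had an unadjusted p under 0.05 and DESeq2 called 369 genes and limma-voom 29, none of them in the set. Otc stood farthest from 0, with a female-minus-male difference in log2 fold change of -1.17 (95% interval -2.17 to -0.18; edgeR adjusted p = 0.256), and was the 1 member with an unadjusted p under 0.05. For Cps1 the difference was -0.03 with a 95% interval from -0.97 to 0.91, and for Ass1 it was -0.09 with an interval from -1.27 to 1.08. Those intervals leave room for sizeable differences in either direction, so the similar estimates do not show that the sexes responded alike.

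Female and male controls were compared as the baseline. No member was called (0 of 8), against 154 genes or 0.92% of all genes tested, and none of the 8 had an unadjusted p under 0.05 in edgeR. DESeq2 and limma-voom called none of the 8 either, and 498 and 329 genes. With 1 library missing, edgeR called 68 to 213 genes and none of the 8. All 8 estimates were higher in females, from a log2 fold change of 0.14 for Slc25a13 to 0.58 for Otc (95% interval -0.12 to 1.28), with a median of 0.33 beside -0.01 for all genes tested. The 1948 abundant genes had a median of 0.16, with 32.4% below 0. Over the fits with 1 library missing, the baseline value of Slc25a13 ran from 0.06 to 0.35 and that of Asl from 0.01 to 0.32.

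Genes that feed, share or drain the cycle were read from 8 lists holding 52 genes, all tested. In males 1 of the 52 was higher and 1 lower, in females 2 were higher and 3 lower, and in the mean of both sexes 3 were higher and 3 lower, at an edgeR adjusted p under 0.05. Of all genes tested, 0.221% were higher and 0.233% lower in males, 2.09% higher and 2.15% lower in females, and 1.2% higher and 1.65% lower in the mean. No gene of the 52 was called for a difference between the sexes. With the 8 female libraries alone, the female calls of Slc38a4, Agmat, Aldh18a1 and Slc7a1 were lost (edgeR adjusted p from 0.102 to 0.126) and that of Gldc was held. With both male CRE- replicate 3 and female LKO replicate 1 left out, chosen after seeing the data, the calls of Slc38a4 within each sex, of Aldh18a1 and Slc7a1 in females and of Gldc in the mean were lost (edgeR adjusted p from 0.0552 to 0.140).

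Genes that supply nitrogen and bicarbonate came first. Of 14, none was called higher, and the median log2 fold change was -0.53 in males and -0.74 in females. In males 14 of the 14 were below 0 and in females 12, beside 50.9% and 46.9% of all genes tested. Slc38a4, a sodium-coupled carrier that brings amino acids into hepatocytes, was at 1074, 1183, 1218 and 919 CPM in male CRE- and 555, 548, 536 and 501 CPM in male LKO. It was at 880, 962, 1188 and 889 CPM in female CRE- and 465, 828, 439 and 457 CPM in female LKO. The groups did not overlap in either sex, and female LKO replicate 2 lay nearest the controls. In the mean of both sexes Slc38a4 fell by 0.94 ± 0.15 on the log2 scale (SE; edgeR adjusted p = 0.00223; under the control mean in 4 of 4 LKO livers of each sex), a call held in all 16 fits with 1 library missing. The calls within a sex were less firm. In males the log2 fold change was -1.04 (edgeR adjusted p = 0.0414), lost in 11 of those 16 fits with an edgeR adjusted p of up to 0.114 without male LKO replicate 4, and in females it was -0.84 (edgeR adjusted p = 0.0367), lost in 10 with up to 0.115 without female CRE- replicate 3. The female call was also lost without a filter (edgeR adjusted p = 0.0548) and with the 8 female libraries alone (edgeR adjusted p = 0.126).

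Gldc, the decarboxylase of the glycine cleavage system, was at 192, 299, 158 and 182 CPM in female CRE- and at 97.9, 82.6, 66.1 and 80.8 CPM in female LKO. The groups did not overlap, and Gldc fell by 1.34 on the log2 scale (edgeR adjusted p = 0.0273). That call was lost in 6 of the 16 fits, those without female CRE- replicate 2, 3 or 4 or female LKO replicate 1, 3 or 4, with an edgeR adjusted p of up to 0.102 without female CRE- replicate 2. In the mean of both sexes Gldc (-0.84; edgeR adjusted p = 0.0445) kept its call in 3 of 16 fits. Slc38a3, a glutamine carrier called in the mean of both sexes at -0.88 (edgeR adjusted p = 0.0323), kept its call in 5 of 16, the highest edgeR adjusted p being 0.0713 without male LKO replicate 1. In the male comparison Glud1, glutamate dehydrogenase, was at 1097 ± 135 and 1070 ± 107 CPM in CRE- and LKO livers (SD, n = 4). Its log2 fold change in males was -0.04. Gls2 and Sds were singled out after their values were seen. The liver glutaminase Gls2, which frees ammonia, had a mean log2 fold change over the sexes of -1.27 (edgeR adjusted p = 0.0505), and serine dehydratase, Sds, had -1.24 (edgeR adjusted p = 0.0521). In female LKO livers Gls2 was at 61.8, 411, 105 and 83.5 CPM, with replicate 2 inside the range of the controls.

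Genes that use arginine and ornithine went in both directions. Of 9, 1 was higher in males, and in females 1 was higher and 1 lower. Pycr1 and Aldh18a1, which act in the making of proline, were scarce, and both rose in the mean of both sexes. Pycr1 was at 0.241 ± 0.0613 CPM in male CRE- and 1.38 ± 0.266 CPM in male LKO, and at 0.359 ± 0.197 CPM in female CRE- and 1.05 ± 0.502 CPM in female LKO (SD, n = 4). Its mean log2 fold change was 2.03 (edgeR adjusted p = 0.00356), called in all 16 fits with 1 library missing. The call in males alone (2.51; edgeR adjusted p = 0.0322) was lost in 8 of them, each without a male library. Aldh18a1 was at 2.92 ± 1.09 CPM in female CRE- and 10.7 ± 8.74 CPM in female LKO (SD, n = 4), with 22.9 CPM in LKO replicate 1. Its mean log2 fold change of 1.77 (edgeR adjusted p = 0.00945) was called in all 16 fits, while its female value of 1.87 (edgeR adjusted p = 0.0424) became 1.19 without female LKO replicate 1 (edgeR adjusted p = 0.159) and was lost in 10 of 16. Agmat, agmatinase, had 168 ± 29.9 CPM in female CRE- and 78.0 ± 32.2 CPM in female LKO (SD, n = 4), a fall of 1.11 on the log2 scale (edgeR adjusted p = 0.0375) lost in 8 of 16, with an edgeR adjusted p of up to 0.114 without female CRE- replicate 2.

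Of 4 transport genes, Slc7a1, the general arginine and lysine carrier that liver holds at a low level, was called higher in females and in the mean of both sexes. It stood at 2.93, 1.62, 1.29 and 1.71 CPM in female CRE- and at 13.5, 2.89, 6.38 and 3.53 CPM in female LKO (log2 fold change 1.80; edgeR adjusted p = 0.0362), with replicate 2 inside the control range. Without female LKO replicate 1 the value was 1.20 (edgeR adjusted p = 0.126), and the call was lost in 7 of 16 such fits. In males Slc7a1 stood at 2.23, 1.16, 3.54 and 1.98 CPM in CRE- and at 3.81, 3.58, 4.55 and 4.32 CPM in LKO, without overlap (log2 fold change 0.87; edgeR adjusted p = 0.560). Its mean log2 fold change over the sexes was 1.34 (edgeR adjusted p = 0.0281), a call held in 8 of 16 fits with an edgeR adjusted p of up to 0.0676 without female CRE- replicate 2. The liver carrier Slc7a2 and the water, glycerol and urea channel Aqp9 were not called. Slc7a2 was at 671, 400, 705 and 340 CPM in male CRE- and 347, 223, 345 and 171 CPM in male LKO (edgeR adjusted p = 0.396). In females it was at 232, 200, 423 and 225 CPM in CRE- and 328, 687, 246 and 226 CPM in LKO. Of the 4 genes it had the lowest adjusted p for the difference between the sexes (edgeR adjusted p = 0.240). None of 4 paralogs of the members was called either. Among them Slc25a12, the other aspartate-glutamate carrier, was at 14.98 ± 1.86 CPM in male CRE- and 13.8 ± 1.99 CPM in male LKO livers (SD, n = 4). In females it was at 15.4, 13.04, 14.3 and 13.4 CPM in CRE- and 21.8, 15.7, 14.9 and 20.8 CPM in LKO (log2 fold change 0.38; edgeR adjusted p = 0.200), with LKO replicate 3 inside the control range.

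The remaining lists gave no calls: 4 genes of ammonia uptake into glutamine, of which Glul was the most abundant, 3 genes that return fumarate to aspartate (Mdh1, Mdh2 and Fh1), the deacylases Sirt3 and Sirt5, and 12 transcription factors. Of the 4 ammonia uptake genes, 0 were below 0 in females (median log2 fold change 0.62) and 3 in males (median -0.27), beside 46.9% and 50.9% of all genes tested. Glul was at 1362, 1200, 1169 and 1678 CPM in female CRE- and at 1052, 1210, 1841 and 5724 CPM in female LKO. The factor with the lowest adjusted p in females was Cebpa, a hepatocyte regulator, at 399, 560, 697 and 743 CPM in female CRE- and 172, 462, 338 and 227 CPM in female LKO, overlapping through LKO replicate 2 (edgeR adjusted p = 0.0679), and its male estimate was -0.09 on the log2 scale (edgeR adjusted p = 0.945). Hnf4a stood at -0.17 in females and 0.06 in males.

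Markers of cell types were read beside these results, since in bulk tissue fewer hepatocytes and less RNA per hepatocyte cannot be told apart. The hepatocyte list was plainly present: its 10 genes, with the most reads on Alb, summed to 164895, 146980, 154220 and 183037 CPM in female CRE- and to 103452, 135015, 126513 and 152614 CPM in female LKO, and none was called in either sex. In males the sums were 127363 ± 20828 CPM in CRE- and 105735 ± 12161 CPM in LKO (SD, n = 4). The median log2 fold change of the 10 was -0.08 in males and -0.18 in females, beside -0.53 and -0.78 for the urea cycle genes. Of the 10, 6 were below 0 in males and 7 in females. In females 1 was lower and 1 was higher at an unadjusted p under 0.05. Alb, with the lowest adjusted p of the list in females, had -0.69 there (edgeR adjusted p = 0.103).

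Macrophage markers had estimates above 0 in females, with groups that overlapped through LKO replicate 2. The 8 genes, with the most reads on Cd5l and none of them at 0 in a library, summed to 870, 636, 707 and 1200.4 CPM in female CRE- and to 3923, 1159, 2472 and 1523 CPM in female LKO. LKO replicate 1, with the lowest urea cycle levels, had the highest macrophage sum, and LKO replicate 2 the lowest of its group. All 8 had a log2 fold change above 0 in females, each at an unadjusted p under 0.05 (12.3% of all genes tested were higher at that level), and 1 was called, against 2.09% of all genes tested called higher, Adgre1 (log2 fold change 2.15; edgeR adjusted p = 0.0451), which was 1.21 without female LKO replicate 1 (edgeR adjusted p = 0.189) and lost its call in 10 of 16 such fits. In males the sums were 1072, 525, 294 and 1563 CPM in CRE- and 1345, 730, 808 and 707 CPM in LKO, and no macrophage gene was called. The 7 neutrophil markers, with the most reads on S100a9, of which 6 were tested, summed to 36.7, 19.3, 16.4 and 16.5 CPM in female CRE- and 124, 42.4, 64.3 and 547 CPM in female LKO, with all 6 higher at an unadjusted p under 0.05, beside the same 12.3% of all genes, and 2 called, beside the same 2.09%, Retnlg and Mpo, of which Retnlg kept its call in 10 of 16 fits and Mpo in 11. In males the estimates ran the other way: the neutrophil sums were 78.7, 19.7, 15.9 and 147 CPM in CRE- and 26.2, 16.3, 13.1 and 12.5 CPM in LKO, overlapping through control replicates 2 and 3, and all 6 genes tested were below 0 (median log2 fold change -2.10), 5 at an unadjusted p under 0.05 and none called. Of all genes tested, 50.9% were below 0 in males and 4.74% were lower there at an unadjusted p under 0.05. Between 0 and 2 neutrophil genes had no reads in a given library. The part of these cells in the urea cycle values was not tested.

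Of 4 proliferation markers, with the most reads on Mki67, 3 were called higher in females (Top2a, Ccnb1 and Cdk1, held in 7, 12 and 12 of 16 fits), against 2.09% of all genes tested. Ccnb1 was also called in the mean of both sexes (log2 fold change 1.56; edgeR adjusted p = 0.0462; held in 3 of 16 fits), where 1.2% of all genes tested were called higher. The 4 summed to 8.78, 6.72, 4.02 and 15.8 CPM in female CRE- and 71.2, 12.8, 27.9 and 28.1 CPM in female LKO, overlapping through LKO replicate 2 and control replicate 4. In males the sums were 10.4 ± 6.50 CPM in CRE- and 8.64 ± 3.83 CPM in LKO (SD, n = 4), and none of the 4 was called. Among 6 endothelial genes Cdh5 was called higher in females (log2 fold change 0.79; edgeR adjusted p = 0.0249; held in 12 of 16 fits) and in the mean of both sexes (0.49; edgeR adjusted p = 0.0394; held in 3 of 16 fits, and lost without a filter and with the block), beside the same 2.09% and 1.2% of all genes. In females 2 of the 6 were below 0 and 3 were higher at an unadjusted p under 0.05, beside 12.3% of all genes. Their sums, with the most reads on Stab2, were 239 ± 28.5 CPM in female CRE- and 288 ± 54.2 CPM in female LKO (SD, n = 4), and the groups overlapped. With the 8 female libraries alone, the female calls of Top2a, Ccnb1, Cdk1 and Cdh5 were lost (edgeR adjusted p from 0.0638 to 0.0844), as were those of Adgre1 (0.0857), Retnlg (0.0634) and Mpo (0.0763), and Mpo was also not called by limma-voom. With both male CRE- replicate 3 and female LKO replicate 1 left out, Adgre1, Mpo, Top2a, Ccnb1 and Cdk1 in females and Ccnb1 and Cdh5 in the mean lost their calls (edgeR adjusted p from 0.0533 to 0.113). The part of these markers in the urea cycle values was not tested. Erythroid markers had estimates below 0 in males. The 5 genes, with the most reads on Hbb-bs, summed to 768, 626, 558 and 1039 CPM in male CRE- and 196, 393, 306 and 492 CPM in male LKO, without overlap. All 5 were below 0 (median log2 fold change -1.27), beside 50.9% of all genes tested. At an unadjusted p under 0.05, 4 were lower, beside 4.74% of all genes tested, and edgeR called none. In females all 5 were above 0 (median 0.57), none at an unadjusted p under 0.05, and the groups overlapped. The part of these cells in the urea cycle values was not tested. Lists for plasma and B cells, NK and T cells, stellate cells and cholangiocytes gave no calls in edgeR, and of the 5 pancreatic acinar genes 1 was tested, Cela1, and not called.

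Markers of the position of hepatocytes along the lobule were also read, since urea cycle enzymes are a periportal trait. The 7 periportal markers, with the most reads on Pck1, share Hal, Sds and Gls2 with the nitrogen supply list. They summed to 4106, 3717, 3352 and 3518 CPM in male CRE- and 1763, 1278, 2868 and 1744 CPM in male LKO, without overlap between the male groups, and to 2085, 2761, 3596 and 2392 CPM in female CRE- and 1418, 4180, 1501 and 1329 CPM in female LKO. In females LKO replicate 2 exceeded every control and the other 3 lay below every control. The median log2 fold change of the 7 was -0.69 in males and -0.61 in females, beside -0.53 and -0.78 for the urea cycle genes. Of the 7, 5 were below 0 in each sex. In females 4 were lower and 1 was higher at an unadjusted p under 0.05, where 9.14% of all genes tested were lower and 12.3% higher. Cyp2f2 was the 1 periportal gene called, where 2.15% of all genes tested were called lower in females and 1.65% in the mean. It fell by 2.42 on the log2 scale in females (edgeR adjusted p = 0.0149) and by 1.56 in the mean of both sexes (edgeR adjusted p = 0.0140), each held in 16 of 16 fits, and its male value of -0.69 was not called (edgeR adjusted p = 0.660). The part of lobule position in the urea cycle values was not tested. None of the 9 pericentral markers was called, with a median log2 fold change of 0.16 in males and 0.44 in females. They include Cyp2e1 of the hepatocyte list and Glul and Rhbg of the ammonia uptake list, so these readings are not independent. Their sums, with the most reads on Cyp2e1, were 7624, 11616, 2012 and 8569 CPM in male CRE-, where replicate 3 lay far below the rest, and 9349 ± 3138 CPM in male LKO, and in females, against the direction of the median, 8374 ± 1154 CPM in CRE- and 7479.6 ± 3747 CPM in LKO (SD, n = 4).

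The genes whose levels followed the urea cycle most closely over the 16 livers were taken by rank. Among 8251 genes tested with a mean of at least 10 CPM, the 10 with the highest Pearson r to the mean of the 8 scaled log2 levels were Aass (r = 0.955), Nqo2 (0.952), Adk (0.948), Aldh4a1 (0.933), Hgd (0.933), Rdh16 (0.932), Qdpr (0.930), Dmgdh (0.928), Akr1d1 (0.926) and Lrtm1 (0.921). These are descriptions over 16 libraries that share the group differences. Aass opens lysine breakdown, Hgd acts in tyrosine breakdown, and Aldh4a1 acts in proline breakdown. With each group's mean subtracted, the 10 leading genes included Aass (r = 0.935), Lurap1l (0.933), Hgd (0.921), Adk (0.918), Nqo2 (0.917), Tdo2 (0.910), Isca1 (0.903), Fh1 (0.897) and Gm5424 (0.887), and 4 genes stood in both lists. Gm5424 is a pseudogene copy of the member Ass1, described below, so its r cannot be read apart from that member.

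The members also differed in how closely each kept to the other 7. Over the 16 libraries the r of a member with the mean of the others was 0.920 for Ass1, 0.903 for Asl and 0.839 for Slc25a15, and it was 0.732 for Slc25a13, 0.726 for Cps1, 0.719 for Otc and 0.685 for Nags. Ass1 and Asl lay above the mitochondrial genes, as a description that includes the group differences. With group means subtracted the r was 0.874 for Ass1 and 0.489 for Cps1.

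The genes lie apart in the genome (GRCm39): Cps1 at chr1:67151294-67270426, Ass1 at chr2:31360282-31410682, Asl at chr5:130040099-130053222, Slc25a13 at chr6:6041218-6217304, Slc25a15 at chr8:22865566-22888637, Nags at chr11:102036339-102040354 and Otc at chrX:10118584-10187275. Cps1, Otc, Ass1 and Nags are on the plus strand and Asl, Slc25a13 and Slc25a15 on the minus strand. No pair of these shares a chromosome. Gcgr also lies on chromosome 11, at chr11:120420011-120429815.

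Some counts are uncertain in source. Gm5424, a pseudogene copy of Ass1 on another chromosome, aligned to the Ass1 transcript over 1240 bases with 99.5% identity, and reads that matched both were not counted. Its own reads came to between 0.389% and 0.649% of those of Ass1 in each library, and the split of shared reads between the copies cannot be checked. Antisense genes overlap Nags and Otc. Gm11586 shares 442 exon bases with Nags and had 5.35% as many reads, and Gm54080 shares 19 with Otc and had 0.250%. Counting used strand, but the labels describe no strand-marking step, so reads on the shared bases may come from either gene.

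Promoters are shown since glucagon acts through cAMP and the 8 edgeR estimates lay below 0 in both sexes on 16 libraries, though in males not all did without male CRE- replicate 2. RefSeq promoters on GRCm38.p6, each from 250 bases before to 50 bases after a transcription start, were held for 5 of the 8 members, with 6 promoters; Cps1 and Asl were not matched. Both strands were searched for the cAMP response element TGACGTCA, for its 5-base part TGACG, which lies within it, and for the C/EBP-type motif TTGCNNAA. TGACGTCA was found in 0 of the 6 promoters and in 1.79% of the 32851 mouse promoters of that length, TGACG in 2 of 6 and in 20.8%, and TTGCNNAA in 0 of 6 and in 10.8%. The matches to TGACG were in Slc25a13, 13 bases before the start, and in Nags, after the start. A match here is a description of letters, and no match says only that these letters are not in this window.

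The stretches before the start are printed for the called genes Otc and Slc25a15 (the outer of its pair of starts) and for Slc25a13, which holds the match; they are 5′ to 3′ on the gene's strand, 250 bases each, and capitals mark TGACG. Their GRCm38.p6 positions are chrX:10252055-10252304 (plus strand), chr8:22398622-22398871 (minus strand) and chr6:6217174-6217423 (minus strand).
Otc: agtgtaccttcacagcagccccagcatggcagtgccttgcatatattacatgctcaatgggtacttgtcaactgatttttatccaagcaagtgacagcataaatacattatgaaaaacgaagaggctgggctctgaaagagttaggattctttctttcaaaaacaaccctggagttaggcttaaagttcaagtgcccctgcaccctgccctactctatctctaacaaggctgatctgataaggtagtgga
Slc25a15: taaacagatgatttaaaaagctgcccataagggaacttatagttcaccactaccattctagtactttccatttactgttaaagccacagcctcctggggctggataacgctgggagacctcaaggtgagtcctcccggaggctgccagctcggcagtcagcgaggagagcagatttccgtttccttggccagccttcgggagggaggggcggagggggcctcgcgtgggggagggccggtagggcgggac
Slc25a13: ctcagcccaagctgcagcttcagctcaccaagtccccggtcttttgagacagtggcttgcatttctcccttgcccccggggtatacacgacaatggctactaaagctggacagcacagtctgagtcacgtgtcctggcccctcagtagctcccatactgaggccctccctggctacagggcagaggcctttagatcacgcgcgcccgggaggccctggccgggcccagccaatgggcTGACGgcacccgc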

How the data were processed

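Bulk RNA-seq of mouse liver was read from the deposited table, in which the authors gave raw counts per gene for 16 libraries (STAR 2.7.1a, featureCounts of Subread 2.0.6, GRCm39). Each mate was counted, and reads mapping to several places or genes were not. Genes were filtered with filterByExpr (minimum count 10), scaled by TMM and tested with edgeR 4.0.16 in R 4.3.3 by the quasi-likelihood test on 4 groups, with Benjamini-Hochberg adjustment over 16742 genes and a threshold of 0.05. Levels are CPM. By rule, named genes were the members, Gcgr, related genes past the threshold or among the most abundant per kilobase of their list, and the 10 most similar genes in each of both patterns. Of these, 1 member, which is kept in all counts and medians over the 8, and 1 similar gene are not reported here. The members and lists were chosen with earlier results of these data known. Alternatives were DESeq2 1.42.0, limma 3.58.1 (voom with sample weights), RLE scaling, no filter, a block by replicate number, the 8 libraries of a comparison alone, and leaving out each library.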

Additional observations from a re-analysis of the deposited data

Results flagged for a closer look

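In 72 sets of 4 values, the distance from the highest or lowest value to its neighbour was compared with the whole range. Each set was a gene level, read share or marker sum, not logged, in 1 of the 4 groups. In 9 sets a value stood apart beyond the 95% critical value of Dixon, where chance gives about 1 in 20 for a single set. The sets come from the same 16 livers, so they are not independent and their count is not a test. Ass1 was at 1917 CPM in male LKO replicate 3, above the other 3 livers of its group. Nags was at 73.7 CPM in female CRE- replicate 3, below the rest of its group. Gcgr was at 127 CPM in male CRE- replicate 3, below the other male controls. The macrophage markers summed to 1345 CPM in male LKO replicate 1, above its group. The neutrophil markers summed to 36.7 CPM in female CRE- replicate 1 and to 547 CPM in female LKO replicate 4, each above its group. The periportal markers summed to 4180 CPM in female LKO replicate 2, above its group. The pancreatic acinar markers summed to 89.4 CPM in male CRE- replicate 2 and to 367 CPM in female CRE- replicate 2, each above its group.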

How the results depend on the processing

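Of the member calls, Slc25a15 in the mean of both sexes was held under DESeq2, RLE scaling, no filter, the block and limma-voom and in 16 of 16 fits without a library (edgeR adjusted p from 0.0102 to 0.0494), and was lost with both male CRE- replicate 3 and female LKO replicate 1 left out, an alternative chosen after seeing the data (-0.62; edgeR adjusted p = 0.0505). Otc in females was held under the same 5 alternatives (lowest adjusted p = 0.00590) and in 4 of 16 fits without a library, and lost with the 8 female libraries alone. With DESeq2, genes called numbered 335 in males, 1795 in females, 369 for the sex difference, 1013 in the mean and 498 between controls, and members called 2 in females and 4 in the mean. With limma-voom the genes numbered 148, 1976, 29, 857 and 329, and members 5 in females and 5 in the mean. In that fit the male log2 fold change was 0.01 (0.00563) for Nags and 0.02 (0.0192) for Slc25a13, and the sex difference was 0.03 (0.0349) for Ass1 and 0.01 (0.00965) for Asl. Without a filter 12 genes were called for the sex difference. A block by replicate number gave 1244 genes and 2 members in females and 629 genes and 2 members in the mean, but no label ties mice of 1 number to each other. Of 24 same-number pairs 11 had r above 0.1 (range -0.25 to 0.33), 3 of 4 between CRE- and LKO in each sex. In all, 10 of 16 libraries were closest to a library of their own number. Pairs of unlike number were not counted beside these, so no link between mice of 1 number can be read from them. The numbers follow the sample titles. For male CRE- replicate 4 and female LKO replicates 3 and 4 the counts header carries another number. The 8 libraries alone gave 119 genes and 0 members in females and 249 genes between controls. With both doubted libraries left out, 361 genes and 0 members were called in females and 491 genes and 2 members in the mean, and the sex difference was 0.02 (0.0157) for Cps1, 0.37 for Ass1 and 0.21 for Asl. Leaving out each library in turn gave 26 to 111 genes in males, 87 to 1310 in females, 0 to 14 for the sex difference, 299 to 598 in the mean and 68 to 213 between controls, and 0 to 4 members in females and 1 to 5 in the mean. Across those fits the male value ran from -0.24 to 0.08 (0.0848) for Otc, -0.17 to 0.07 (0.0736) for Nags and -0.17 to 0.13 for Slc25a13, and the sex difference from -0.30 to 0.15 for Cps1, -0.63 to 0.20 for Ass1 and -0.38 to 0.12 for Asl. The cause of these shifts was not tested. With 4 mice a group, smaller differences could not be resolved.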
